A study of Mus musculus with 20 samples.

Results

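Orchiectomy, the surgical removal of the testes and with them of most circulating testosterone, was compared with sham surgery in the livers of male mice across both oxygen exposures of the study at once. All 19 libraries with a counts column were used, of 20 mice in the labels, and Sham_Nx mouse 1 was not analysed here. Sham-operated mice breathed normal air (Sham_Nx, 4 livers) or underwent intermittent hypoxia (Sham_IH, 5 livers), and orchiectomized mice did likewise (ORX_Nx, 5 livers, and ORX_IH, 5 livers). Intermittent hypoxia repeats short falls in inspired oxygen and is used to model sleep apnoea, and each exposure lasted 2 weeks. Thus 10 orchiectomized livers were set against 9 sham livers, with exposure as an additive covariate and no interaction term, so that each fold change averages the surgery effect over both exposures and need not hold in each. Each library came from 1 mouse. Strain, age, hormone levels and the time between surgery and exposure are not given in the sources used here. The question of the series is whether loss of testosterone and intermittent hypoxia jointly set the expression of flavin-containing monooxygenases in liver.

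As background, rodent liver is among the most sexually dimorphic organs in its transcripts. Testosterone acts on it mainly through the pituitary, which releases growth hormone in separated pulses in males and more continuously in females, and hepatocytes read that pattern through the growth hormone receptor, JAK2 and the transcription factor STAT5B. Downstream, repressors such as BCL6 in males and CUX2 in females, together with HNF6 and HNF4A, shape the output. Male-biased products include the major urinary proteins (Mup), which carry pheromones into urine, and female-biased products include many cytochromes P450 (Cyp), sulfotransferases (Sult) and organic anion transporters.

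Orchiectomy changed a large part of the liver transcriptome, and a small group of sex-biased genes changed by orders of magnitude. Of 15694 genes with enough counts, 3364 (21.4%) were called at an adjusted p under 0.05, 1818 higher (11.6%) and 1546 lower (9.85%). All adjusted p-values for single genes are from edgeR's quasi-likelihood F-test with Benjamini-Hochberg (BH) adjustment over all genes tested. Most changes were small, with a median absolute log2 fold change of 0.402 among called genes. A change of at least 2-fold was found for 516 called genes, 365 of them higher, and one of at least 16-fold for 20 higher and 23 lower genes. The 10 orchiectomized and 9 sham libraries did not overlap for 255 genes (1.62%), of which 104 were higher (0.663% of genes tested) and the rest lower (0.962%), and all 255 were called. The direction of the small changes depended on the scaling of the libraries. Called genes were higher in 54.0% of cases with trimmed mean of M-values (TMM) scaling, in 65.8% with upper-quartile scaling and in 89.9% with no scaling factors, which moved the median change over all genes tested from 0.00315 to 0.13 (log2).

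**Figure D1:**
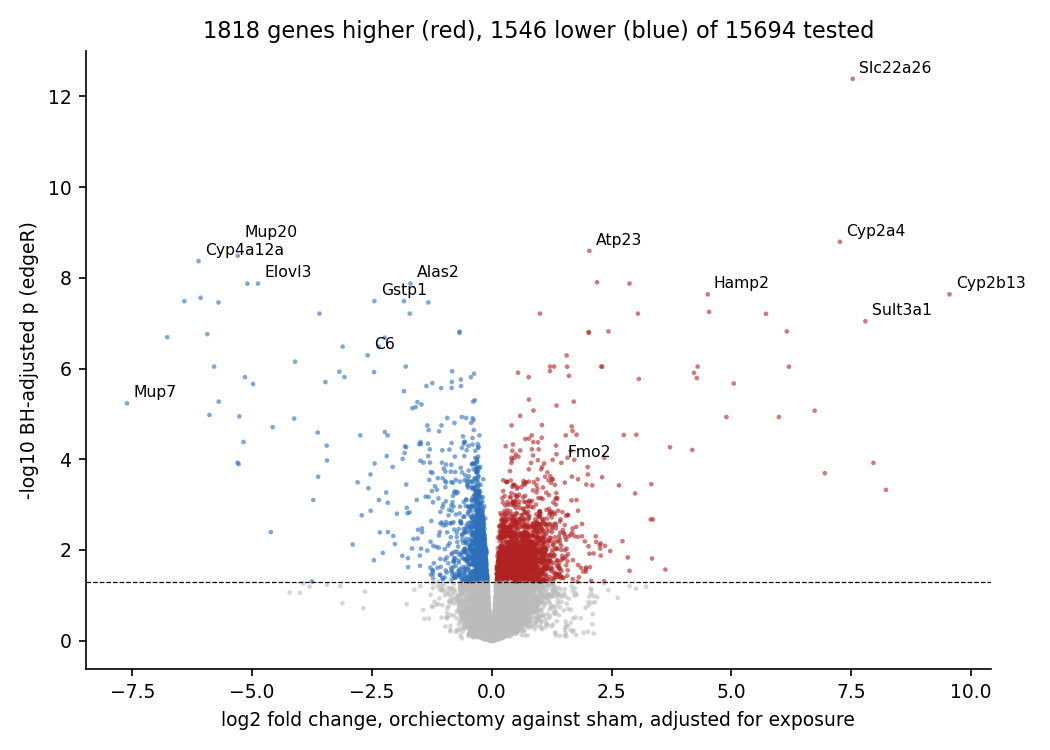
The log2 fold change of orchiectomy against sham surgery, adjusted for exposure (x axis), is plotted against -log10 of the BH-adjusted p (y axis) for 15694 genes. The dashed line marks an adjusted p of 0.05, red points are the 1818 genes called higher and blue points the 1546 called lower. Slc22a26 has the smallest adjusted p, 4.13e-13.

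Libraries held between 29.3 and 69.6 M estimated counts, and levels are given per 1000000 counts (CPM). The hepatocyte genes Alb and Hnf4a were found in every library. Other tissues were present unequally. Summed skeletal muscle markers (15 genes) reached 1176 and 701 CPM in ORX_IH 1 and 2 and 197 and 50.7 CPM in Sham_Nx 2 and 3, against 4.7 to 13.9 CPM elsewhere. Summed pancreatic acinar markers (14 genes) reached 1398 CPM in Sham_IH 5, 590 CPM in Sham_Nx 5 and 254 CPM in ORX_IH 1, against 4.18 to 26.9 CPM elsewhere. The acute phase list was highest in ORX_Nx 4 and 5. Without the 4 muscle-high libraries 1091 genes were called, without the 3 pancreas-high libraries 2011 and without the 2 acute-high libraries 2843, in each case with fewer mice, so that a call can be lost there with no smaller fold change. Of the 255 genes without overlap, 244 stayed called when each library was left out in turn and when each of these sets was left out, against 979 of all 3364 called genes. Those 255 were picked for their separation in these same libraries, so this contrast is no independent support for them.

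Female-biased cytochromes P450 were among the largest rises. They are haem enzymes that oxidize steroids, fatty acids and drugs. Cyp2b13 lay between 0 and 0.357 CPM (median 0.0186) in the 9 sham livers and between 9.06 and 231 CPM (median 54.2) in the 10 orchiectomized livers, a log2 fold change of 9.55 ± 0.69 (SE, adjusted p = 2.32e-08). Its neighbour Cyp2b9 went from 0.412 to 37.2 CPM (median 1.87) to 316 to 731 CPM (median 574), a log2 fold change of 6.74 ± 0.78 (adjusted p = 8.51e-06). The sham livers were spread over a wide range for Cyp2b9 and the orchiectomized livers were not, and the lowest orchiectomized value was above the highest sham value for both genes. Cyp2a4, a steroid 15-alpha-hydroxylase, lay at 0.22 to 1.32 CPM (median 0.429) after sham surgery and at 37.4 to 172 CPM (median 102) after orchiectomy. Its change was 7.26 ± 0.41 (log2 ± SE, adjusted p = 1.61e-09). Cyp2a4 thus rose 153.6-fold, from near the detection limit in sham livers. Cyp2a22 (4.22 ± 0.42, log2 ± SE), Cyp2c69 (4.28 ± 0.44) and Cyp3a44 (5.05 ± 0.53) also rose with no overlap between the groups. Estimated counts of near-identical family members rest on how the quantifier split shared reads, so the level of a single copy is less certain than that of its family.

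Cyp2a5, the closest copy of Cyp2a4 and a coumarin hydroxylase, was picked for comparison after its values were seen. It lay at 91.9 to 233 CPM (median 129) in sham and at 103 to 407 CPM (median 199) in orchiectomized livers, groups that overlap, and was not called (0.52 ± 0.21, adjusted p = 0.0861). The pair is shown because 250 bases before the start are 97.6% identical between the copies (245 of 251 aligned positions) while their responses lay far apart. Both sequences are from RefSeq, build GRCm38.p6, 5′ to 3′, Cyp2a4 at chr7:26306942-26307191 (+) and Cyp2a5 at chr7:26835089-26835338 (+). Neither holds the letters TTCNNNGAA (STAT5) or ATCAAT (HNF6) on either strand, so no letter is capitalized.
Cyp2a4: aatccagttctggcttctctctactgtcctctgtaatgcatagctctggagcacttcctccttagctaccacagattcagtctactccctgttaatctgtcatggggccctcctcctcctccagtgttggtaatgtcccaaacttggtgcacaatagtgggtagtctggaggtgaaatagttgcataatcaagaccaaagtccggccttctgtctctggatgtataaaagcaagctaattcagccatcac
Cyp2a5: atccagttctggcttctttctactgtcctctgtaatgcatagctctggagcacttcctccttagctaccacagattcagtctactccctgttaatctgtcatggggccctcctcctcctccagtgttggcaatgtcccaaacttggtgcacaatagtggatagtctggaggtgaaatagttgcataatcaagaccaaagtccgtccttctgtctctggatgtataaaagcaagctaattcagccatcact

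Transporters and conjugating enzymes of the female-biased programme rose too. Slc22a26, an organic anion transporter of the Slc22 family, lay at 0.18 to 0.759 CPM (median 0.381) in sham and at 39.8 to 123 CPM (median 68.8) in orchiectomized livers. It rose by 7.53 ± 0.27 (log2 ± SE, adjusted p = 4.13e-13), 185-fold, by 7.65 in normoxia and 7.40 under intermittent hypoxia. The related Slc22a27 rose 23.2-fold (4.53 ± 0.36, adjusted p = 5.67e-08), from 0.137 to 1.24 CPM to 7.3 to 23.1 CPM. Sult3a1, a sulfotransferase that conjugates amines, went from 0 to 0.486 CPM (median 0.052) to 3.9 to 59.7 CPM (median 30.2), a log2 change of 7.79 ± 0.64 (adjusted p = 9.11e-08). Its copy Sult3a2 lay at no more than 0.0177 CPM in any sham liver and at 0.11 to 1.43 CPM after orchiectomy. Hao2, a peroxisomal hydroxyacid oxidase, rose from 0.0173 to 0.252 CPM to 0.391 to 22.1 CPM (5.99 ± 0.71, adjusted p = 1.17e-05). Rsph4a, a radial spoke protein of motile cilia, rose from 0.0354 to 0.502 CPM to 1.17 to 7.13 CPM (4.29 ± 0.42, adjusted p = 9.06e-07). None of these genes overlapped between sham and orchiectomized livers, although Hao2 and Rsph4a stayed low in absolute terms.

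The promoters of Slc22a26 and Sult3a1 are shown because both hold the STAT5 letters TTCNNNGAA and the HNF6 core ATCAAT, which Cyp2a4 lacks. Capitals mark those letters on either strand. In Slc22a26 (chr19:7802668-7802917, -) the STAT5 match begins 141 bases before the start and the HNF6 match 58 bases before it. In Sult3a1 (chr10:33857472-33857721, +) they begin 109 and 74 bases before the start. Both are from RefSeq, GRCm38.p6, and were aligned over 284 positions with 48.2% identity.
Slc22a26: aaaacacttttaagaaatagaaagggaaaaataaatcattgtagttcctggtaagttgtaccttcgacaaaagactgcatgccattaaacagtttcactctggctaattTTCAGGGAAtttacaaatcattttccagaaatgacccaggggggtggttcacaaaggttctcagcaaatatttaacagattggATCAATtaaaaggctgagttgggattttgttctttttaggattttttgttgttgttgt
Sult3a1: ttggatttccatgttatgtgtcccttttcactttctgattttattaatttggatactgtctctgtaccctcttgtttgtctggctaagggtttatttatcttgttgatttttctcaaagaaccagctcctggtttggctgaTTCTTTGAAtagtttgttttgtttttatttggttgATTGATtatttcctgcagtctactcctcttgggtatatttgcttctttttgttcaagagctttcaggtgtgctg

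Hamp, the gene for hepcidin, the liver hormone that lowers iron export into blood, and its neighbouring copy Hamp2 differed in their response. Hamp2 lay at 2.66 to 10.3 CPM (median 4.28) in sham and at 21.2 to 275 CPM (median 98.1) in orchiectomized livers and rose 22.7-fold (4.50 ± 0.33, log2 ± SE, adjusted p = 2.32e-08). Hamp lay at 246 to 554 CPM (median 309) and at 136.1 to 847 CPM (median 388), groups that overlap fully, and was not called (0.33 ± 0.28, adjusted p = 0.421). The difference between the copies was not tested. Both promoters, read from RefSeq GRCm38.p6 at chr7:30924182-30924431 (-) for Hamp2 and chr7:30944030-30944279 (-) for Hamp, hold the same STAT5 letters, TTCTTGGAA, 94 and 97 bases before the start, shown in capitals. Their 250 bases are 89.7% identical (227 of 253 aligned positions), and neither holds ATCAAT.
Hamp2: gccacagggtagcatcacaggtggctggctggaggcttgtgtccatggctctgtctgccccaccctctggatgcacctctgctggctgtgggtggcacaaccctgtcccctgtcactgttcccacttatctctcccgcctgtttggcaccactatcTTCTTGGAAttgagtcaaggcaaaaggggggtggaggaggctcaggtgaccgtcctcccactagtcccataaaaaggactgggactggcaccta
Hamp: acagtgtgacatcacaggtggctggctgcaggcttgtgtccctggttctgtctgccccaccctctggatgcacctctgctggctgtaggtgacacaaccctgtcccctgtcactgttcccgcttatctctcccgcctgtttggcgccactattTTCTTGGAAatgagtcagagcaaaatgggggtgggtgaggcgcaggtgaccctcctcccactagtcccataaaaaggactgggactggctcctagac

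Of the 50 genes listed as female-biased, 44 were tested, 33 rose, 1 fell (Adh4, -0.34) and 10 were not called. The median log2 fold change of the 44 was 1.55, against 0.00315 over all genes, and 75.0% rose against 11.6% of all genes. Groups did not overlap, with higher values after orchiectomy, for 20 of the 44, against 0.663% of all genes. Slco1a4, a hepatic uptake transporter for bile acids and steroid conjugates, went from 21.2 to 125 CPM (median 92.5) to 145 to 280 CPM (median 210; 1.67 ± 0.21, adjusted p = 1.89e-05). Abcb1a, a drug efflux pump, rose 2.53-fold (1.34 ± 0.18, adjusted p = 5e-05). Acot3, a peroxisomal acyl-CoA thioesterase, rose 2.30-fold. Female-biased Cyp17a1, Sult1e1, Lifr and Vnn1 were among those not called. Members of this list and of the male-biased one were known beforehand to respond in these livers, so the counts are not independent evidence of their direction.

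The major urinary protein genes were among the largest falls. They are abundant male-biased transcripts of the liver. The 22 Mup genes together took 2.7 to 7.02% of all counts in sham livers (median 4.85%) and 0.132 to 1.13% in orchiectomized livers (median 0.649%), and the groups did not overlap. The mean difference was -4.51 percentage points (exact permutation of surgery within exposure, two-sided, p = 3.15e-05, the smallest that 31752 arrangements can give, 7.87e-05 after BH adjustment over 5 tests). Mup7 lay at 3516 to 19183 CPM (median 10921) after sham surgery and at 4.68 to 459 CPM (median 36) after orchiectomy, and fell by 7.61 ± 0.86 on the log2 scale (adjusted p = 5.85e-06). Mup20, which encodes the pheromone darcin, went from 2780 to 7947 CPM (median 5049) to 72.9 to 334 CPM (median 100) and fell by 5.30 ± 0.33 on the log2 scale (adjusted p = 3.26e-09). The orchiectomized livers were spread more widely for Mup7 than for Mup20, and neither gene overlapped between the groups. Mup1, Mup8, Mup9, Mup11, Mup12, Mup14, Mup15 and Mup17 likewise did not overlap, with log2 fold changes between -6.41 and -5.10. Mup copies are near-identical, and the split of reads among them is uncertain.

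The Mup7 promoter is shown as the one printed from the genes that fell. It holds the HNF6 core ATCAAT at 82 and at 19 bases before the start, in capitals, and no TTCNNNGAA (RefSeq, GRCm38.p6, chr4:60070476-60070725, -). The table used held no promoter for Mup20, Cyp4a12a, Elovl3 or Cyp7b1.
Mup7: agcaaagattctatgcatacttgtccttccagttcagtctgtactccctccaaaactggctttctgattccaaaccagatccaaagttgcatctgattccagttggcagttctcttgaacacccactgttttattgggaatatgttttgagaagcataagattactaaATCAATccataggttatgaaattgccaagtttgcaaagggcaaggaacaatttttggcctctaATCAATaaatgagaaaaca

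Enzymes and a protease inhibitor of the male programme fell in the same livers. Cyp4a12a, a fatty acid omega-hydroxylase that makes the vasoactive lipid 20-HETE, went from 98.8 to 491 CPM (median 219) to 0.948 to 10.1 CPM (median 1.99) and fell by 6.12 ± 0.39 on the log2 scale (adjusted p = 4.3e-09). Its copy Cyp4a12b fell by 5.94 ± 0.51. Serpina1e, an alpha-1-antitrypsin copy, fell from 3200 to 8201 CPM (median 6032) to 15.4 to 711 CPM (median 68.6; -5.18 ± 0.69, adjusted p = 4.16e-05), while its relative Serpina1a fell by only 0.32 ± 0.08. Elovl3, an elongase of very long fatty acids, fell from 70.5 to 218 CPM to 0.446 to 8.34 CPM (-4.88 ± 0.34, adjusted p = 1.34e-08). Of 40 genes listed as male-biased, all were tested, 38 fell and none rose, and the median log2 fold change was -2.13. Groups did not overlap for 24 of the 40. The other 2 were not called, among them Gna14 (0.35), which encodes a G protein alpha subunit.

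More steroid-metabolizing enzymes fell than rose. Of 38 tested, 15 fell (39.5%), 4 rose (10.5%) and 19 were not called, with a median log2 fold change of -0.19. Among all genes tested, 9.85% fell and 11.6% rose, so the share that rose was near that of all genes. Hsd3b5, a hydroxysteroid dehydrogenase, lay at 74.9 to 245 CPM (median 137) in sham and at 0.39 to 27.7 CPM (median 2.18) in orchiectomized livers (-4.98 ± 0.52, adjusted p = 2.2e-06). Cyp7b1, which hydroxylates oxysterols and androgens, fell from 175 to 368 CPM (median 283) to 33.7 to 123 CPM (median 47.8; -2.24 ± 0.20, adjusted p = 2.09e-07). Srd5a1, which reduces testosterone to dihydrotestosterone, went from 89.5 to 148 CPM (median 101) to 28.9 to 102 CPM (median 33). It fell by 1.29 ± 0.18 (adjusted p = 6.03e-05), and 1 orchiectomized liver reached the sham range. Rdh16f2, a retinol and hydroxysteroid dehydrogenase, rose from 40 to 84.2 CPM to 93.8 to 187 CPM (1.30 ± 0.13, adjusted p = 9.06e-07).

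Among hormone signalling genes, the prolactin receptor gene Prlr rose and the growth hormone receptor gene was not called. Prlr is also a member of the female-biased list, and Egfr of the male-biased list. Of 34 genes of androgen and growth hormone signalling, 6 rose (17.6%) and 2 fell (5.88%), with a median of 0.13. Of all genes tested, 11.6% rose and 9.85% fell. Prlr lay at 173 to 289 CPM (median 207) in sham and at 275 to 465 CPM (median 411) in orchiectomized livers, overlapping at 1 end, and rose 1.83-fold (0.87 ± 0.10, adjusted p = 8.44e-06). Egfr, the epidermal growth factor receptor, fell 2.01-fold (-1.01 ± 0.21, adjusted p = 0.00288). Stat5b rose by 0.28 ± 0.07 (adjusted p = 0.00985) and Igfbp3, a carrier of insulin-like growth factors, by 0.61 ± 0.14 (adjusted p = 0.00504). Both calls were lost without the muscle-high libraries, where the changes were 0.28 and 0.51. The growth hormone receptor gene Ghr (-0.31 ± 0.11, adjusted p = 0.0588) and Igf1 (-0.04 ± 0.08, adjusted p = 0.762) were not called. The list also held Cish, an inhibitor of cytokine signalling that STAT5 induces, chosen for mention after its value was seen, with a change of 1.53 ± 0.35 (adjusted p = 0.00518), a call lost without the muscle-high libraries (1.40, adjusted p = 0.0575).

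Of 26 transcription regulators tied to liver sex differences, 3 rose (11.5%) and 1 fell (3.85%), no more than the 11.6% and 9.85% of all genes. Cux2, the repressor that is female-biased in mouse liver, went from 2.25 to 11.3 CPM (median 4.76) to 6.29 to 36 CPM (median 9.72) and rose 2.99-fold (1.58 ± 0.23, adjusted p = 9.27e-05). Tox, an HMG-box protein, rose 1.96-fold (0.97 ± 0.17, adjusted p = 0.000715) and Pparg, a lipid-sensing nuclear receptor, 1.28-fold (0.35 ± 0.08, adjusted p = 0.0034). Sham and orchiectomized livers overlapped for all 3. Bcl6, the male-biased repressor, was the fallen member (-1.75 ± 0.52, adjusted p = 0.0238). Its 5 ORX_IH livers lay at 8.59, 9.24, 9.41, 9.76 and 9.74 CPM, its ORX_Nx livers at 10, 27.2, 71.6, 54.2 and 9.28 CPM, and its sham livers at 14.8 to 110 CPM (median 45.6). The fall was thus uniform under intermittent hypoxia and irregular in normoxia, where Bcl6 was not called (-0.34 ± 0.54, adjusted p = 0.713). Its adjusted p rose to 0.053 without Sham_Nx 3, to 0.0501 without ORX_IH 1, to 0.122 without the muscle-high and to 0.0612 without the pancreas-high libraries, where the fold change was as large (-1.78 and -1.82).

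**Figure D2:**
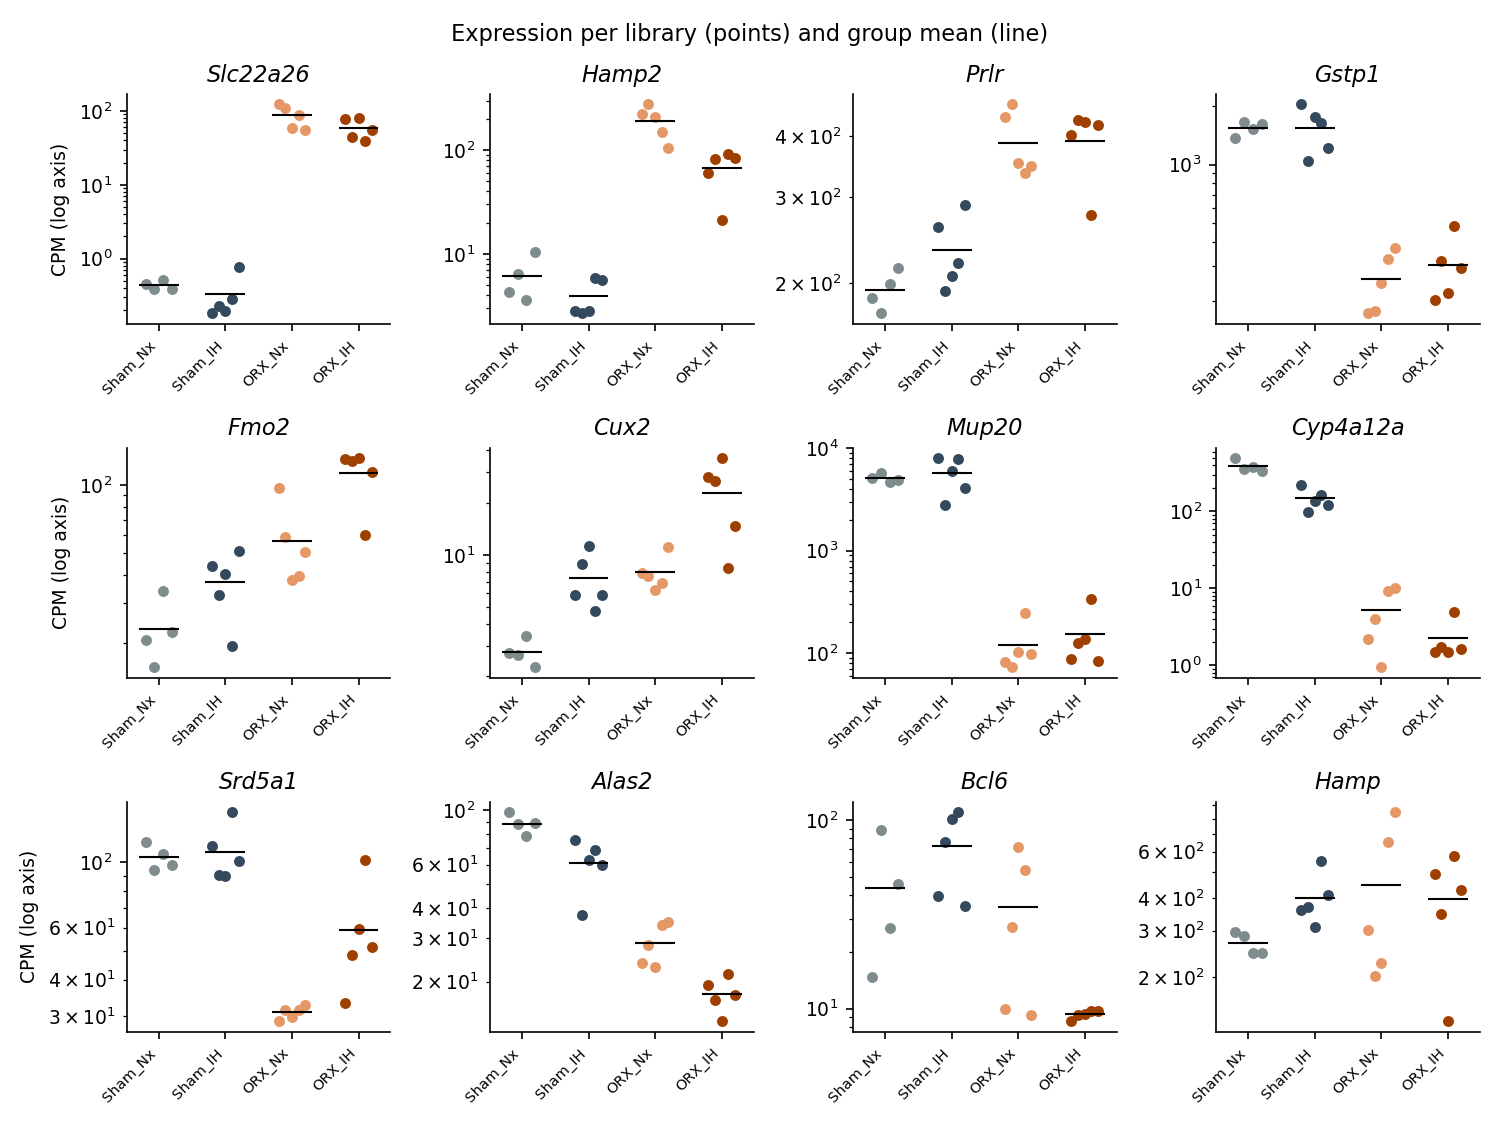
Each panel gives 1 gene, with CPM on a log axis (y), the 4 groups (x), a point per library and a line at the group mean. Slc22a26, Hamp2, Mup20, Cyp4a12a, Gstp1 and Alas2 separate all orchiectomized from all sham livers in both exposures, whereas Bcl6 and Hamp do not.

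Among the flavin-containing monooxygenases, enzymes that oxidize nitrogen and sulfur in drugs and dietary amines, Fmo1, Fmo2 and Fmo4 rose after orchiectomy and Fmo5 was not called. Fmo2 lay at 15.7 to 51.1 CPM (median 32.6) in sham and at 38 to 131 CPM (median 78.5) in orchiectomized livers and rose 2.73-fold (1.45 ± 0.21, adjusted p = 0.00012). An exact permutation of surgery within exposure gave the smallest possible p, 3.15e-05 (BH-adjusted 7.87e-05). Fmo1 went from 189 to 287 CPM (median 245) to 220 to 392 CPM (median 352), a rise of 0.44 ± 0.10 (adjusted p = 0.00497). Fmo4 went from 4.39 to 6.26 CPM to 3.96 to 9.26 CPM, a rise of 0.38 ± 0.10 (adjusted p = 0.0138). Sham and orchiectomized livers overlapped for all of these, and the Fmo1 and Fmo4 calls were lost without the muscle-high libraries, where the changes were 0.361 and 0.365. In the fit of all 4 groups, neither Fmo1 nor Fmo4 was called in normoxia or under intermittent hypoxia. The adjusted p there were 0.099 and 0.0575 for Fmo1 and 0.293 and 0.0535 for Fmo4. Fitted on the normoxia libraries only, neither gene was called (adjusted p = 0.195 for Fmo1 and 0.421 for Fmo4). Fitted on the intermittent hypoxia libraries only, both stayed called. Fmo5 lay at 457 to 624 CPM in sham and at 349 to 781 CPM in orchiectomized livers and was not called (-0.20 ± 0.11, adjusted p = 0.192).

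Conjugation and detoxification genes changed in both directions. Of 12 sulfotransferase genes tested, 7 rose (58.3%) and 2 fell (16.7%), against 11.6% and 9.85% of all genes. Sult1c2, a phenol sulfotransferase, rose 2.41-fold (1.27 ± 0.18, adjusted p = 0.000103). Of 23 glutathione S-transferases, which couple glutathione to reactive compounds, 7 rose (30.4%) and 4 fell (17.4%). Copies of the pi class moved in opposite directions. Gstp1 lay at 1047 to 2034 CPM (median 1615) in sham and at 172 to 485 CPM (median 271) in orchiectomized livers and fell by 2.45 ± 0.18 on the log2 scale (adjusted p = 3.28e-08). Gstp2 fell from 12.1 to 19 CPM to 3.26 to 7.55 CPM (-1.83 ± 0.14, adjusted p = 3.28e-08). Gstp3 rose from 5.7 to 8.3 CPM to 8.66 to 16 CPM (0.84 ± 0.11, adjusted p = 6.03e-05). The groups did not overlap for any of the 3 genes.

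In bile acid synthesis and transport, 6 of 30 genes rose and 11 fell (median -0.15). Cyp7b1, of the alternative synthesis route, and Slco1a4 are given above, and Cyp27a1, which opens that route, fell by 0.39 ± 0.09 (adjusted p = 0.00737), a call lost without the muscle-high libraries (-0.36, adjusted p = 0.0794). Lipid synthesis and storage genes were called near the background rate, 5 of 39 higher and 4 lower. Besides Elovl3 they included Elovl2, an elongase of polyunsaturated fatty acids, which fell by 0.34 ± 0.06 (adjusted p = 0.000889). Among 37 genes of fatty acid oxidation, 3 rose (8.11%) and 5 fell (13.5%), against 11.6% and 9.85% of all genes. Eci3, an enoyl-CoA isomerase, rose from 0 to 0.081 CPM to 0.427 to 5.03 CPM (6.15 ± 0.52, adjusted p = 1.53e-07). Creb3l3, a fasting-responsive transcription factor, fell by 0.27 ± 0.05 (adjusted p = 0.00198), a call also lost there (-0.24, adjusted p = 0.0527). None of 25 cholesterol synthesis genes was called by edgeR, DESeq2, limma-voom or limma-trend, and 1 had an unadjusted p under 0.05. Their log2 fold changes were positive for 23 and negative for 2 (median 0.16).

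Glucose metabolism genes were called for 4 of 24 in each direction (16.7%), against 11.6% higher and 9.85% lower of all genes. The phosphofructokinase-fructose bisphosphatase genes Pfkfb1 (-0.49 ± 0.09, adjusted p = 0.00111) and Pfkfb3 (-0.80 ± 0.15, adjusted p = 0.0011) fell, as did the glycogen synthase gene Gys2 (-0.29 ± 0.07, adjusted p = 0.00931), whose call was lost with no scaling factors and without the muscle-high libraries (-0.24 there). In the urea cycle and amino acid breakdown, 1 of 35 rose (2.86%) and 4 fell (11.4%), near or below the shares of all genes. Csad, a decarboxylase of the route from cysteine to taurine, fell from 137.5 to 322 CPM (median 181) to 40 to 114.6 CPM (median 69.5; -1.55 ± 0.17, adjusted p = 5.5e-06) with no overlap. Tdo2, which opens the tryptophan ring, fell 1.54-fold (-0.62 ± 0.09, adjusted p = 5.63e-05). Bckdhb, of the branched-chain keto acid dehydrogenase, rose by 0.32 ± 0.05 (adjusted p = 0.000312).

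Complement and coagulation genes were called near the share of all genes, with 5 of 41 higher (12.2%) and 6 lower (14.6%), against 11.6% and 9.85%. The 3 of smallest p encode parts of the membrane attack complex, the pore of the terminal pathway. C6 lay at 187 to 301 CPM (median 266) in sham and at 21.5 to 84.5 CPM (median 38.5) in orchiectomized livers and fell 6.03-fold (-2.59 ± 0.24, adjusted p = 5.13e-07). C8a fell 2.27-fold (-1.19 ± 0.20, adjusted p = 0.000394) and C8b 2.04-fold (-1.03 ± 0.16, adjusted p = 0.000262). C9, mentioned after its value was seen, fell 2.10-fold (-1.07 ± 0.21, adjusted p = 0.00145). The other listed genes of the complex, Hc (-0.15), C7 (-0.29) and C8g (-0.13), were not called. Groups did not overlap for C6 and C8a.

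Iron and haem genes were called for 2 of 23 in each direction (8.7%), below the share of all genes. Besides Hamp2, the marked change was in Alas2, the erythroid enzyme that starts haem synthesis, which fell from 37.4 to 98.3 CPM (median 75.7) to 13.8 to 35 CPM (median 22.2; -1.70 ± 0.12, adjusted p = 1.34e-08). Slc11a2, an iron importer, fell by 0.26 ± 0.05 (adjusted p = 0.0015). Alas2 was the 1 called gene of 9 erythroid markers tested, and the globin genes Hba-a1 (-0.19), Hba-a2 (-0.20), Hbb-bs (-0.07) and Hbb-bt (-0.18) were not called.

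**Figure D3:**
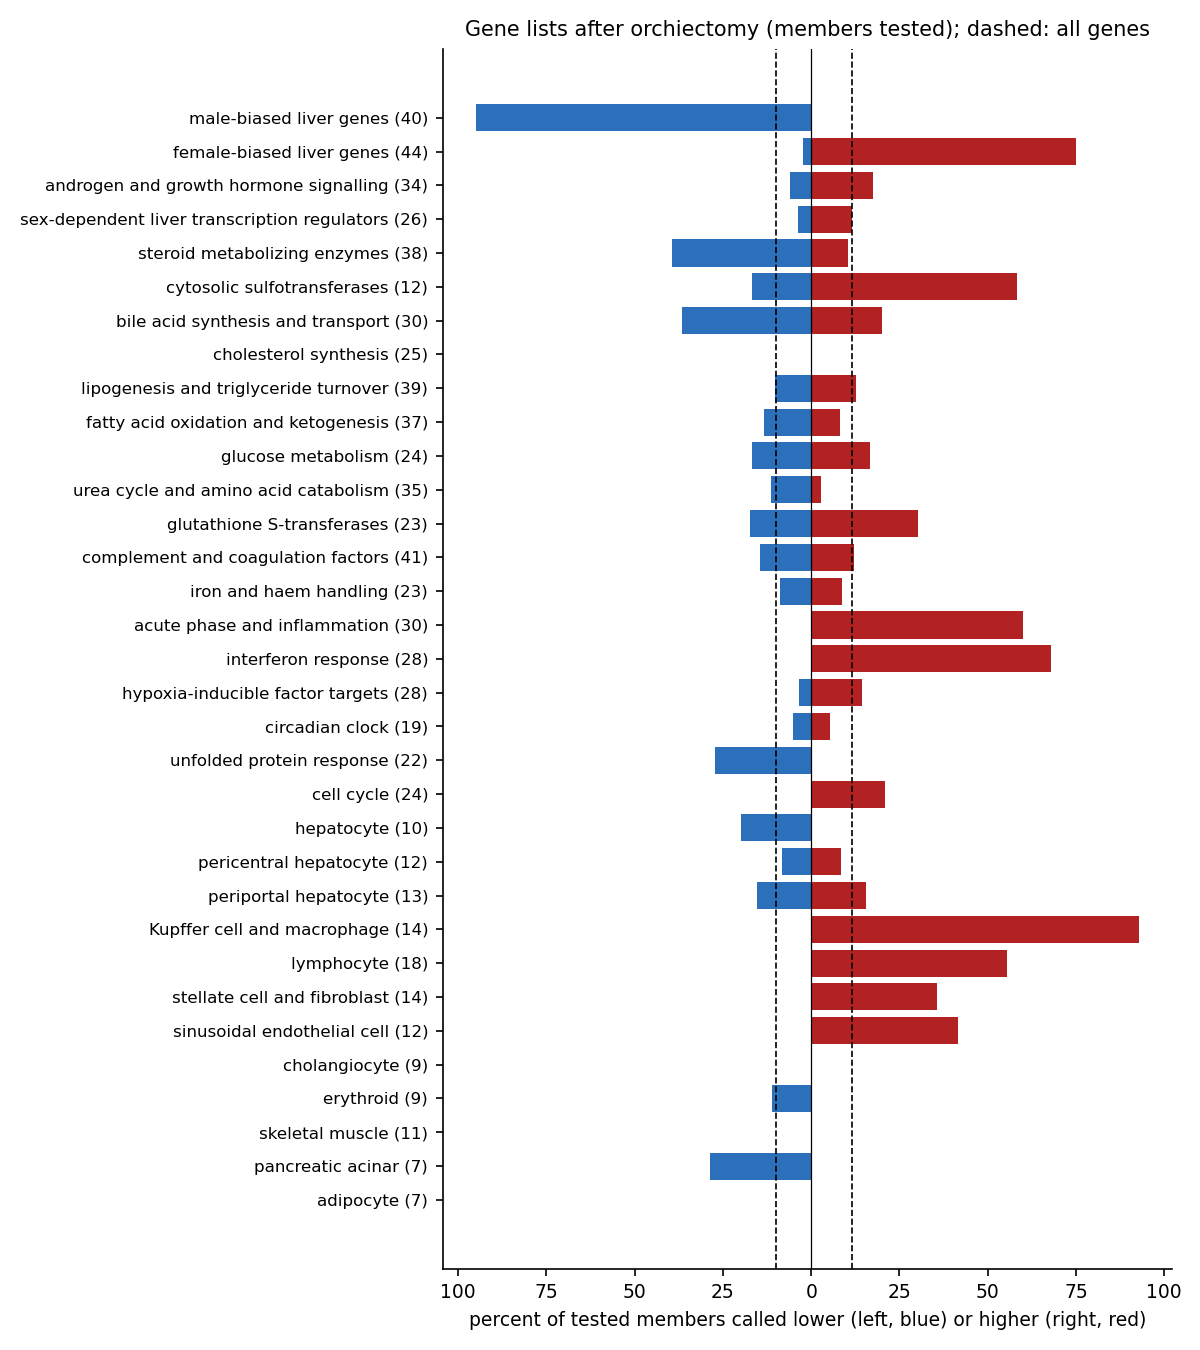
For each gene list with at least 6 tested members (number in brackets), bars give the percent of members called lower (left, blue) or higher (right, red) after orchiectomy. Dashed lines mark the share of all genes, 9.85% lower and 11.6% higher. The male-biased list reaches 95% lower, the female-biased list 75.0% higher and the Kupffer cell list 92.9% higher.

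Immune and inflammatory genes were higher after orchiectomy in all mice together, and many of these calls were lost when some libraries were left out. Of 14 Kupffer cell and macrophage markers, 13 were called higher (median 0.89), of 18 lymphocyte markers 10 (median 1.05), of 28 interferon-response genes 19 (median 0.61) and of 30 acute phase and inflammation genes 18 (median 0.60). None of their members was called lower, against 9.85% of all genes. The shares called higher were 92.9%, 55.6%, 67.9% and 60.0%, against 11.6% of all genes, whose median change was 0.00315. In these bulk samples more cells of a type and more RNA per cell cannot be told apart. Cd68, a macrophage lysosomal protein, went from 3.74 to 7.15 CPM to 5.17 to 21.7 CPM (0.93 ± 0.20, adjusted p = 0.00376). C1qb, a complement subunit made by Kupffer cells, went from 15.4 to 29.7 CPM to 23.4 to 89.9 CPM (0.85 ± 0.19, adjusted p = 0.00484). The B cell receptor components Cd79a (1.34 ± 0.25, adjusted p = 0.000999) and Cd79b (1.35 ± 0.24, adjusted p = 0.00071) rose, as did the B cell surface protein Ms4a1 (1.55 ± 0.30, adjusted p = 0.00175). Gbp3, an interferon-induced GTPase, rose 2.45-fold (adjusted p = 0.00148) and Ifit3, an antiviral RNA-binding protein, 2.11-fold (adjusted p = 0.00206). Orm2 and Orm3, acute phase glycoproteins, rose by 2.99 ± 0.51 and 3.33 ± 0.54 (adjusted p = 0.000566 and 0.000355), and Serpina3m, a protease inhibitor, by 0.51 ± 0.09 (adjusted p = 0.000658). Sham and orchiectomized livers overlapped for each gene named here.

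Some libraries stood far above the others for these genes. Summed Kupffer markers lay at 239 to 446 CPM (median 300) in sham and at 323 to 1509 CPM (median 480) in orchiectomized livers, with 1509 and 1203 CPM in ORX_Nx 4 and 5. Summed lymphocyte markers lay at 8.82 to 14.9 CPM in sham and at 13.7 to 65.9 CPM in orchiectomized livers, highest in ORX_IH 1. Without the 4 muscle-high libraries, 4 of the 13 Kupffer calls, 4 of the 10 lymphocyte calls, 6 of the 19 interferon calls and 5 of the 18 acute phase calls were left. Without the 3 pancreas-high libraries, 10, 6, 10 and 10 were left, and without the 2 acute-high libraries 11, 8, 18 and 18. Without the muscle-high libraries, the lost Kupffer calls had larger fold changes except for Lyz2 (log2 0.923 to 0.85), for instance Csf1r (0.861 to 0.96). The lost lymphocyte calls had smaller ones except for Cd3e (0.97 to 1.088), for instance Ighm (1.48 to 0.723). All lost acute phase calls had smaller ones, and the lost interferon calls went both ways. In the male-biased list, 36 of 38 calls were left without the muscle-high libraries, and in the female-biased list 30 of 34. Of 11 skeletal muscle markers tested none was called by edgeR or 3 other tools and none had an unadjusted p under 0.05. Prss2 and Pnlip of the pancreatic list were at 0 in 11 and 13 libraries, Mb of the muscle list in 7 and Ngp of the neutrophil list in 11. Of the 7 pancreatic markers tested, Cela1 (-1.87 ± 0.50, adjusted p = 0.0134) and Cela2a (-3.75 ± 1.32, adjusted p = 0.0491) were called lower. The Cela2a call was lost in limma-voom (adjusted p = 0.547), in limma-trend (0.396) and without the pancreas-high libraries (-0.16, adjusted p = 0.822), and its sign reversed in mouse numbers 1 to 4 (1.47). The Cela1 call was lost without Sham_Nx 5 (adjusted p = 0.0558) or Sham_IH 5 (0.065). Whether the other tissues in a sample had a part in the immune counts was not tested.

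**Figure D4:**
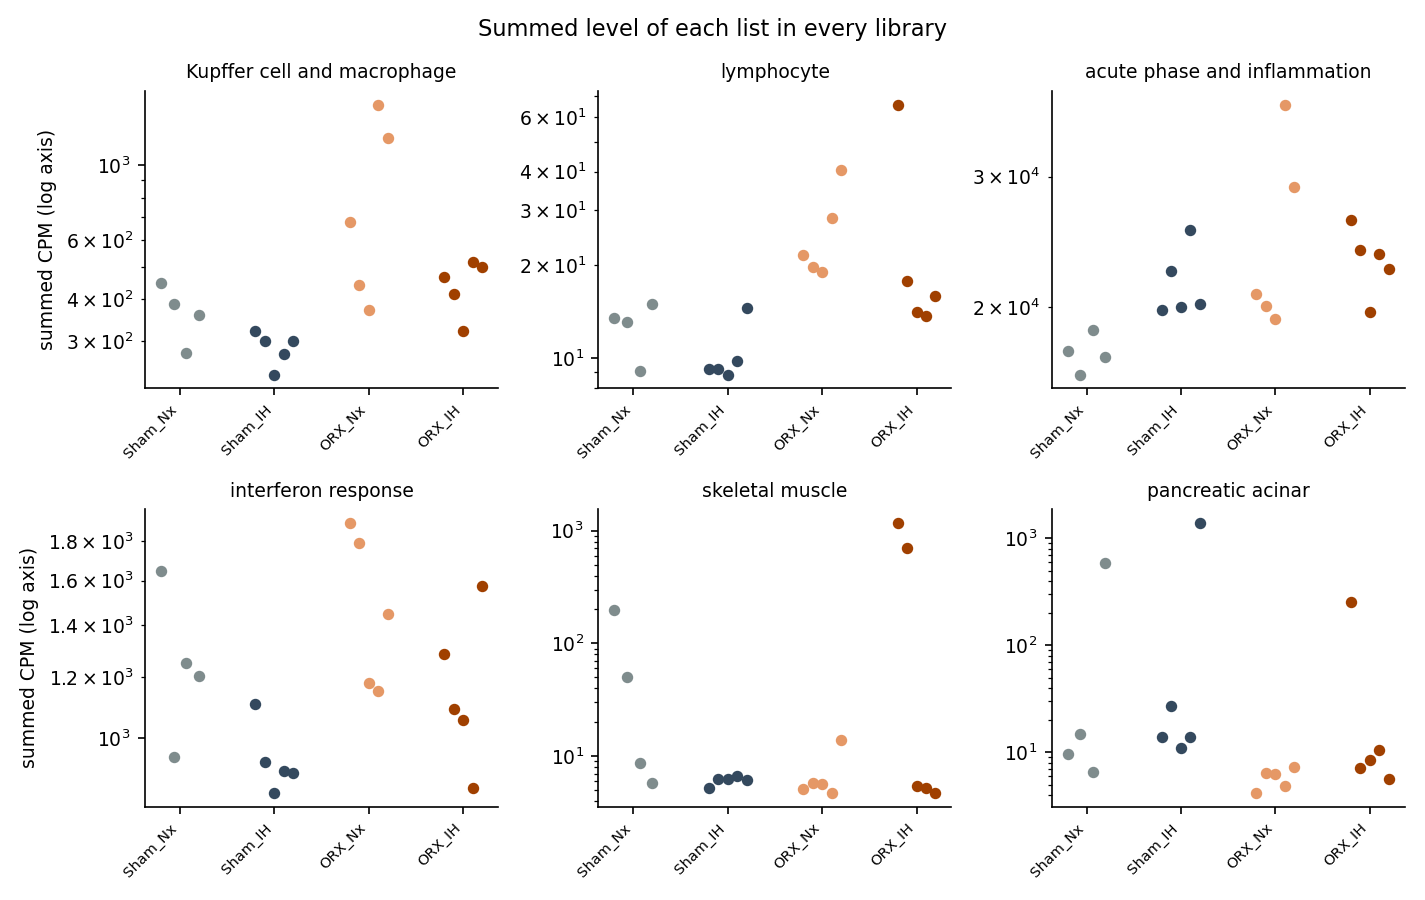
Each panel sums the CPM of 1 gene list (log axis, y) in every library (points) of the 4 groups (x). ORX_Nx 4 and 5 stand highest for the Kupffer and acute phase lists, ORX_IH 1 and 2 for muscle, and Sham_IH 5, Sham_Nx 5 and ORX_IH 1 for pancreas.

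Structural cells and the remaining processes changed less. Of 14 stellate cell and fibroblast markers 5 rose, among them Colec11, a collectin of stellate cells (0.34 ± 0.07, adjusted p = 0.00364), and the collagens Col1a2 (0.86 ± 0.23, adjusted p = 0.012) and Col3a1 (1.08 ± 0.25, adjusted p = 0.00559). Both collagen calls were lost without the muscle-high libraries, where the changes were 0.67 and 0.94. The 5 calls among 12 sinusoidal endothelial markers were small, and none held when each library was left out in turn. Of 22 unfolded protein response genes 6 fell, none rose and all 22 had a negative log2 fold change (median -0.38). Calr and Pdia6, a chaperone and a disulfide isomerase of the endoplasmic reticulum, fell by 0.40 ± 0.11 (adjusted p = 0.0161) and by 0.38 ± 0.10 (adjusted p = 0.014), and both calls were lost with no scaling factors. Of the 6 calls, 5 held without the muscle-high and 2 without the pancreas-high libraries. Summed unfolded protein response genes lay at 6213 to 13727 CPM in sham and at 4330 to 9028 CPM in orchiectomized livers. Ccnd1, the cyclin D1 gene, rose from 8.16 to 21.8 CPM (median 15.2) to 30.1 to 126.3 CPM (median 43.3; 1.68 ± 0.21, adjusted p = 2.38e-05) without overlap. Of 5 called cell cycle genes among 24 tested, only the Ccnd1 call held without each library in turn. Targets of hypoxia-inducible factor were called higher for 4 (14.3%) and lower for 1 (3.57%) of 28, against 11.6% and 9.85% of all genes. Of 19 clock genes 1 rose and 1 fell (5.26% each). The repressor gene Bhlhe40, in both lists, rose 2.07-fold (1.05 ± 0.23, adjusted p = 0.00343).

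Few markers of hepatocytes and of their position in the lobule were called. The lists are short, and 11.6% of all genes rose and 9.85% fell. Of 10 hepatocyte genes none rose and 2 fell (20.0%), Serpina1a and Apob (-0.24 ± 0.07, adjusted p = 0.0237). Both calls were lost without the muscle-high libraries, where the changes were -0.34 and -0.26. Of 12 pericentral genes 1 rose and 1 fell (8.33% each), and of 13 periportal genes 2 rose and 2 fell (15.4% each). Periportal Aldh1b1, a mitochondrial aldehyde dehydrogenase, rose from 17.2 to 26.2 CPM to 28.5 to 111 CPM with no overlap (1.26 ± 0.20, adjusted p = 0.000276). Periportal Cyp2f2 fell 1.70-fold (-0.76 ± 0.13, adjusted p = 0.000511) and Ctsc, a lysosomal protease, rose 1.42-fold (0.51 ± 0.11, adjusted p = 0.0026). The list thus held called members of opposite direction.

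Fitting the exposures separately, with no library shared, gave 918 calls in normoxia (5.98% of 15342 genes, 5 against 4 mice) and 598 under intermittent hypoxia (3.95% of 15144, 5 against 5). Of these, 901 and 596 were among the 14960 genes that both fits tested. Both fits called 283 genes, which is 31.4% of the normoxia calls and 47.5% of the hypoxia calls, and all 283 had the same direction. Of the normoxia calls 96.2% had the same sign under intermittent hypoxia, and of the hypoxia calls 99.2% had the same sign in normoxia, against 73.3% of all genes. In the fit of all 4 groups, orchiectomy called 2377 genes in normoxia (15.1%) and 453 under intermittent hypoxia (2.89%). There, 350 of the 3364 genes were called in both exposures, 1638 in normoxia alone, 73 under intermittent hypoxia alone and 1303 (8.30% of genes tested) in neither exposure alone. A count in 1 exposure alone does not show that the exposures differ. The interaction called 0 genes in edgeR and 1002 (6.38%) at an unadjusted p under 0.05.

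The genes called only when both exposures were joined had mostly small changes. Their median absolute log2 fold change was 0.334, with 716 higher and 587 lower, and 9.67% of them changed at least 2-fold. Those with the smallest p included Prkcb, a protein kinase C (0.88 ± 0.19, adjusted p = 0.00319), from 1.14 to 2.32 CPM to 1.9 to 5.58 CPM, with adjusted p of 0.0514 and 0.0695 in normoxia and intermittent hypoxia. Fam126a, Cfap36 and Armcx1 rose by 0.34 ± 0.07, 0.23 ± 0.05 and 0.51 ± 0.11. Epm2aip1 and Mn1 fell by 0.23 ± 0.05 and 0.46 ± 0.10. Sham and orchiectomized livers overlapped for all 6, and Armcx1, for instance, changed by 0.44 in normoxia and 0.57 under intermittent hypoxia. The calls of Cfap36 and Mn1 were lost without the muscle-high libraries (0.19 and -0.42 there) and that of Epm2aip1 with no scaling factors. Fitted on the intermittent hypoxia libraries only, Prkcb, Epm2aip1 and Mn1 were called. On the normoxia libraries only they were not (adjusted p = 0.162, 0.135 and 0.105). Fam126a, Cfap36 and Armcx1 were called in neither of these separate fits. In the other direction, 419 genes were called in an exposure alone but not in the joined comparison.

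**Figure D5:**
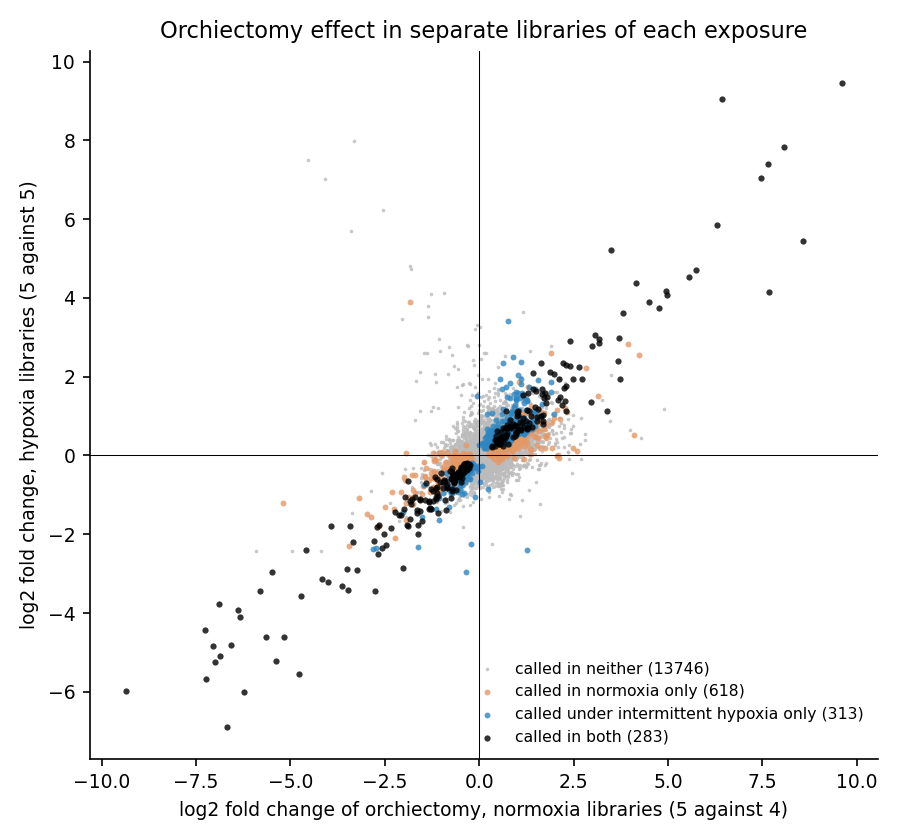
The log2 fold change of orchiectomy in the normoxia libraries (x axis, 5 against 4 mice) is plotted against that in the intermittent hypoxia libraries (y axis, 5 against 5 mice) for 14960 genes. Black points are the 283 genes called in both fits, which all have the same sign on both axes.

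Genes that responded lay next to each other more than once. In RefSeq order, used for neighbourhood only, 15179 tested genes gave 15158 neighbouring pairs, of which 588 (3.88%) were both called in the same direction and 266 in opposite directions. There were 14 runs of at least 5 called neighbours with 1 direction. The longest were 11 lower genes from Mup11 to Mup17 and 11 higher genes from Gimap8 to Aoc1, the latter holding GTPases of lymphocytes. Runs of 7 higher genes were Cyp2b10 to Cyp2a4, the interferon-inducible Ifi207 to Ifi205, and Abcg3 to Gbp11, and 5 neighbours from Ugt2b1 to Ugt2b5, steroid glucuronidating enzymes, were lower. The runs were chosen for mention after they were seen, and the shared reads of near-identical neighbours enter the Mup and Cyp2b runs.

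Motif letters were counted in promoters of 300 bases (250 before to 50 after the start, RefSeq GRCm38.p6, both strands), for 11770 of the 15694 tested genes that matched by symbol. TTCNNNGAA was found in 8.64% of all tested genes with a promoter, in 10.1% of higher and 6.84% of lower genes, and in 8.30% of all 32851 promoters in the table. ATCAAT was found in 6.04% of tested genes, 7.14% of higher and 7.51% of lower genes. Among genes whose groups did not overlap it was found in 22.2% of those higher (16 of 72) and 17.1% of those lower (19 of 111). The HNF4A letters CAAAGTCCA were found in 0.62% of tested genes and in 4.17% (3 of 72) and 0.901% (1 of 111) of these sets. Near-identical copies of 1 family recur in both sets, and the median share of A and T was 44.4% and 42.7% against 40.3% in all tested genes. These counts describe letters in a window and were not tested.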

How the data were processed

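Liver RNA of male mice was sequenced after poly(A) selection with strand-specific kits, per the labels' protocols. Per the submitters' processing notes, kallisto 0.46.1, fastp 0.23.2 and build GRCm39 were used. The authors deposited estimated counts (expected counts) per gene, of which 27.5% were not whole and were rounded here before testing. A second table the authors deposited holds normalized log2 values, a score (the F-statistic of their own test) and its p-values and q-values, of which only the log2 values were used, as an alternative. Those log2 values are labelled TMM, and no further detail of their normalization is given in the sources.

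The counts table held 36106 genes, 11593 at 0 in every library. Genes were kept by filterByExpr with a minimum count of 10, scaled by TMM, and fitted with exposure plus surgery by edgeR's quasi-likelihood method (edgeR 4.0.16, R 4.3.3). A gene was called at a BH-adjusted p under 0.05, and SE is the fold change over the root of F. The script was tested on simulated data. CPM use TMM library sizes. At the shallowest library 3 counts are the floor, and depth limits only genes near 0. Alternatives used DESeq2 1.42.0, limma 3.58.1, other scalings, filters and sample sets.

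Named genes were the 12 largest rises and 12 largest falls without overlap at 1 CPM or more, up to 3 called genes of smallest p per list, the genes of smallest p called only with both exposures joined, and genes of hormone signalling, iron and the study's question. Members and 36 lists were chosen with earlier results of these data known. Some genes of the lists are not reported here. Promoters were read from RefSeq tables, and 250 bases before the start were aligned globally (match 1, mismatch -1, gap opening -3, extension -0.5). Nothing in the labels pairs mice of the same number.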

Additional observations from a re-analysis of the deposited data

Results flagged for a closer look

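Of 152 sets of 4 or 5 libraries looked at (38 quantities in 4 groups), 15 held a library that stood apart from the rest of its own group by Dixon's criterion (on log2 CPM + 0.1 for genes), which chance alone meets in about 1 of 20 sets. ORX_IH 4 was that library for 5 genes, each time on the side of the sham livers: Sult3a1 at 23.1 CPM against 45.7 to 59.7 CPM in the other ORX_IH livers, Cyp4a12a at 4.96 CPM against 1.48 to 1.74, Mup9 at 23.2 CPM against 3.78 to 5.93, Fmo2 at 60.1 CPM against 114.3 to 131 and Prlr at 275 CPM against 402 to 433.

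Among orchiectomized livers, Mup20 reached 248 CPM in ORX_Nx 4 against 72.9 to 103 CPM, Hamp2 was 21.2 CPM in ORX_IH 3 against 60.4 to 90.8 CPM, and Cyp2b9 was 412 CPM in ORX_IH 1 against 549 to 608 CPM. Among sham livers, Sham_Nx 4 was high for Cyp2b13 (0.357 CPM against 0 to 0.0203) and Cyp2c69 (42.7 CPM against 11.1 to 13.9), and Sham_IH 5 for Slc22a26 (0.759 CPM against 0.18 to 0.283). Sham_Nx 3 was low for Mup15 (424 CPM against 1275 to 1517) and Mup9 (121 CPM against 346 to 429). Sham_IH 2 was low for Mup7 (3516 CPM against 8563 to 11721) and for the share of all Mup genes (2.7% against 4.35 to 4.91%).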

How the results depend on the processing

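The count of 3364 called genes became 3358 with DESeq2's size factors in edgeR, 3276 with upper-quartile scaling, 4652 with none, 2805 without a filter, 3015 with at least 1 CPM in 9 libraries, 3979 in DESeq2, 3064 in limma-voom, 3127 in limma-trend on the authors' deposited table and 2324 in mouse numbers 1 to 4. It became 1091, 2011, 918 and 598 without the muscle-high libraries, without the pancreas-high libraries, in normoxia only and under intermittent hypoxia only, all of which use fewer mice. Leaving out 1 library gave 2609 to 3424 calls, and a Mup share difference of -4.73 to -4.34 percentage points. With the mouse number as a replicate block 2968 genes were called. The 27 same-numbered pairs across groups had correlations of -0.211 to 0.275 (median 0.000505, against -0.00264 in other pairs), 4 above 0.1. Of 19 libraries, 8 correlated best with their own number, and whether the number pairs the samples was not tested. Mouse 5 carries the last library number of each group in the labels, and no batch is stated. Of the genes named, signs reversed for Cela2a (0.45 with a factor for mouse number 5, 1.47 in mouse numbers 1 to 4), Igf1 (0.09 with no scaling, 0.028 under intermittent hypoxia only) and Hamp (-0.072 without the acute-high libraries, -0.015 under intermittent hypoxia only). The cause was not tested. Of all values recomputed, 3930 kept direction and side of the threshold, 226 lost the call and 8 gained it, for Ghr and Fmo5.

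Depth limits only genes near the floor, such as the sham values of Cyp2b13, Sult3a1, Sult3a2 and Eci3. The largest fold changes rest on those few counts. Sham_Nx has 4 libraries, and markers of other tissues are unequal between groups.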

Other observations

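Genes outside the lists also separated every orchiectomized from every sham liver; those below were picked after their values were seen. Atp23, a mitochondrial metalloprotease involved in assembly of the ATP synthase, lay at 3.21 to 4.38 CPM (median 3.47) in sham and at 9.42 to 19.4 CPM (median 15.8) in orchiectomized livers, a log2 fold change of 2.04 ± 0.12 (SE, edgeR BH-adjusted p = 2.56e-09), with 1.99 in normoxia and 2.07 under intermittent hypoxia. Vldlr, the very low density lipoprotein receptor gene, rose from 3.79 to 7.32 CPM to 13.4 to 30.2 CPM (2.02 ± 0.17, adjusted p = 1.57e-07). Also higher were genes best known from neurons: Sybu, a kinesin linker, and Sh3gl2, an endophilin of synaptic vesicles, by 3.05 ± 0.24 and 2.87 ± 0.20. App, the amyloid precursor protein gene, rose by 0.50 ± 0.07 (adjusted p = 7.85e-05).

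Among the falls were abundant genes of peroxisomes, where very long and branched fatty acids are shortened. Scp2, a sterol carrier protein and peroxisomal thiolase, lay at 3719 to 4768 CPM (median 4161) in sham and at 2224 to 2935 CPM (median 2690) in orchiectomized livers (-0.65 ± 0.07, adjusted p = 1.75e-06). Phyh, which starts the breakdown of phytanic acid, went from 1526 to 2036 CPM to 897 to 1227 CPM (-0.67 ± 0.06, adjusted p = 1.64e-07). Cat, the catalase gene, went from 2424 to 2817 CPM to 1218 to 2211 CPM (-0.46 ± 0.09, adjusted p = 0.00132). Ephx2, a soluble epoxide hydrolase found partly in peroxisomes, fell by 0.60 ± 0.08 (adjusted p = 3.13e-05). Mug1, a murine protease inhibitor of the alpha-2-macroglobulin family, fell by 1.32 ± 0.10 (adjusted p = 3.5e-08), from 4767 to 8128 CPM to 1838 to 3275 CPM. Gcgr, the glucagon receptor gene, fell by 0.30 ± 0.06 (adjusted p = 0.00117) with no overlap between 226 to 255 CPM in sham and 154.7 to 220 CPM in orchiectomized livers. No peroxisome list was tested, and these genes stand as single values.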
